A study of Mus musculus with 4 samples.

Results

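The mouse genome carries many genes for zinc finger proteins in tandem arrays, and the binding of CTCF at the starts of these clustered genes was described here in skeletal muscle. A gene counted as clustered when it was an autosomal protein-coding gene named Zfp and a number in GENCODE M21 and had at least 4 other such genes with starts within 500 kb. By this rule 156 of the 358 autosomal Zfp genes were clustered and 202 lay outside clusters, among 20807 autosomal protein-coding genes in all. Of these 202 genes 110 had no other such gene within 500 kb, 31 had 1, 41 had 2 and 20 had 3. The group outside clusters thus also holds genes with Zfp neighbours. The rule used only positions and names, and no binding value entered it. Just inside it, Zfp980, Zfp986 and Zfp992 had exactly 4 others in reach. Just outside, Zfp120, Zfp937 and Zfp442 had 3.

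CTCF was mapped by chromatin immunoprecipitation and sequencing in frozen gastrocnemius, the large calf muscle, of B6CASTF1/J females aged 2 months. These mice are a hybrid of a C57BL/6 and a CAST parent, and the peaks were placed on the mm10 reference, so the alleles were not told apart. There was 1 tissue, 1 genotype and no treatment. Tissue of 2 biosamples was combined in each of pool E and pool F, and each gave 2 libraries as technical replicates, 4 in all, with 1 control for both. Fragments of 200 to 600 bp were kept. The conservative list, which rests on both pools and holds 42163 peaks, was used unless another is named. Its peak strength is the authors' own score, its scale was not stated, and it was used to rank peaks within a list. No list gives read counts, so the depth was unknown, and no expression was measured. Every list merges the technical replicates, so replicate error could not be computed and no test was made. Shares carry 95% Wilson intervals, which cover counting error only and take genes as independent, although neighbours in a cluster share sequence and sometimes a peak.

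Most clustered Zfp genes encode C2H2 zinc finger proteins, many of them with a KRAB domain. A KRAB zinc finger protein binds a DNA sequence, often in a transposable element, and recruits the corepressor TRIM28 with SETDB1, HP1 proteins and the NuRD complex to silence it. The genes arose by repeated tandem duplication, so neighbours are often close copies of each other. CTCF is itself a zinc finger protein. It binds a long motif, stops loop extrusion by cohesin in an orientation that the motif sets, and is bound at many gene starts.

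The sequences below carry the clearest pattern in these clusters, a CTCF site that some genes of the same cluster hold as copies. In the cluster from Zfp160 to Zfp946 on chromosome 17, 6 of 19 members had a related stretch upstream of the start, and each copy lay under a summit. It was found by comparing the 40 bases around the exact core motif at Zfp51 with every window within 1500 bp of each start, and the minimum of 25 identical bases was set after the values were seen. Zfp51 was the reference because, among exact cores at summits within 1 kb of this cluster's starts, its summit was the strongest. Its own summit and full identity were thus fixed by that choice. All sequences are from mm10, run 5′ to 3′ on the minus strand, and show the 14-base CTCF core, or the bases aligned to it, in capitals. The last line is the nearest match at Zfp229, a neighbour with no summit within 1 kb, shown for contrast.
Zfp51 (chr17:21449826-21449865): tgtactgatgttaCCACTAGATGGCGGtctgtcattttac
Zfp52 (chr17:21534595-21534634): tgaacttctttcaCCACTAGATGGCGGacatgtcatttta
Zfp54 (chr17:21422761-21422800): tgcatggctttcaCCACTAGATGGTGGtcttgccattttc
Zfp677 (chr17:21383466-21383505): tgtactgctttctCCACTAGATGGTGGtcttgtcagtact
Zfp948 (chr17:21566400-21566439): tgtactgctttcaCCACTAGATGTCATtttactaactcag
Zfp983 (chr17:21650086-21650125): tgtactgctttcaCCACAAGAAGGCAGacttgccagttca
Zfp229 (chr17:21729798-21729837): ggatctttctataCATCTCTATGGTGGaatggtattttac

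Identity to the Zfp51 stretch was 28 of 40 bases at Zfp54 and 26 at Zfp52, Zfp677, Zfp948 and Zfp983. The best match at the other 13 members of this cluster reached at most 23 bases, the value at Zfp229. Among the 137 members of other clusters the highest was also 23, and among the 202 Zfp genes outside clusters it was 24. The core held no mismatch at Zfp51 and Zfp52, 1 at Zfp54 and Zfp677, and 2 at Zfp948 and Zfp983. In all 6 copies the core lay on the strand opposite to the gene, between 263 and 925 bp upstream of its start. None of the copies overlapped a repeat masked in the genome file or an annotated UTR. The Zfp54 copy lay in an exon of an annotated noncoding RNA, and the other 5 lay outside annotated exons.

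A second set comes from the cluster between Zfp786 and Zfp467 on chromosome 6. Here the summits at Zfp282 and Zfp777 shared a run of 19 bases, and the stronger summit at Zfp746 held 15 of them. Each run lies on its gene's own strand, and capitals mark bases identical to the run at Zfp282.
Zfp282 (chr6:47877573-47877591, plus strand): GGCTGTAGATGGAGCTGTC
Zfp777 (chr6:48048589-48048607, minus strand): GGCTGTAGATGGAGCTGTC
Zfp746 (chr6:48086610-48086628, minus strand): aGCTGcAGgTGGAGCTGTg

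At the 33 summits of other clusters the best match to this run had 14 identical bases at most and a median of 11. The 15 bases at Zfp746 were close to that maximum, so its stretch cannot be called a copy from this count. Zfp282 and Zfp777 are not adjacent, as Zfp212 and Zfp956 lie between them. The other summits of the chromosome 6 cluster were near that level, with 12 bases at Zfp786 and Zfp212, 11 at the weaker Zfp746 summit and 10 at Zfp956. The nearest core motif at the 3 summits shown had 3 mismatches, so that none counted as motif-bearing under the limit of 2 used here. The third set is a pair of neighbours on chromosome 7, Zfp747 and Zfp764, whose summits lay 6 and 5 bp upstream of the starts. Both held the same 27 bases, shown in capitals.
Zfp747 (chr7:127376044-127376070, plus strand): GCTCCCTAGCGGTCCTGCCCAGGGTTG
Zfp764 (chr7:127406823-127406849, plus strand): GCTCCCTAGCGGTCCTGCCCAGGGTTG

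Both genes lie on the minus strand, and the nearest core motif at both summits had 3 mismatches. Over all pairs of the 40 summits within 1 kb of member starts, a run of at least 14 identical bases within 50 bp of both summits occurred in 10 of 67 pairs from the same cluster (14.9%). It occurred in 1 of 713 pairs from different clusters (0.14%). That pair was Zfp746 on chromosome 6 with Zfp994 on chromosome 17, and the 14 bases they share lie within the Zfp746 stretch shown above. Of the 10 pairs 8 are among the copies on chromosome 17, and the other 2 are Zfp282 with Zfp777 and Zfp747 with Zfp764, so these are the sets already shown. Without the cluster from Zfp160 to Zfp946 the count was 2 of 46 same-cluster pairs (4.35%).

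CTCF was bound close to the starts of clustered Zfp genes about as often as at other genes, and less often by count at 1 to 5 kb from them. A summit lay within 1 kb of the start in 38 of 156 members (24.4%, 95% interval 18.3 to 31.7). Over all autosomal protein-coding genes the share was 21.1%, so the members' share was near the background. Outside clusters 48 of 202 Zfp genes had such a summit (23.8%, 18.4 to 30.1). Within 5 kb the members' share was 48 of 156 (30.8%, 24.1 to 38.4), against 38.2% of all genes and 84 of 202 Zfp genes outside clusters (41.6%, 35 to 48.5). The intervals of both Zfp groups overlap in either window.

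Members had fewer summits beyond the first kb. Among the 118 members with no summit within 1 kb, 10 had one at 1 to 5 kb (8.47%), against 21.7% of all genes in that position and 36 of 154 Zfp genes outside clusters (23.4%). As a share of the whole group these were 6.41% (3.52 to 11.4) of members and 17.8% (13.2 to 23.7) of Zfp genes outside clusters, and these intervals do not overlap. The members' share was the lower one in all 12 alternative settings, but the intervals overlapped in 8 of them, including the combined list (8.33% against 17.3%), the pool E list (8.33% against 17.8%), the pool F list (6.41% against 13.4%) and a cluster radius of 250 kb (7.14% against 15.9%). Of the members with a summit within 5 kb, 79.2% had one within 1 kb, compared with 57.1% outside clusters and 55.3% of all genes. The clearest gap was at 1 to 2 kb from the start, where members had 6.41 summits per Mb, Zfp genes outside clusters 47 and all genes 42.1. That low density rests on 2 summits, since the members' ring at 1 to 2 kb spans 0.312 Mb. Within 250 bp of the start the density was 218 summits per Mb at members, 317 outside clusters and 233 over all genes. From 250 to 500 bp the order differed, with 192 per Mb at members, 109 outside clusters and 99.4 over all genes. The lower density was not particular to 1 to 5 kb. At 2 to 5 kb members had 20.3 summits per Mb, against 30.5 outside clusters and 32.5 over all genes. The values were 16.7, 22.8 and 31.9 at 5 to 10 kb, 18.9, 28.5 and 33.7 at 10 to 20 kb, and 26.3, 29.9 and 32.6 at 20 to 50 kb, in the same order. All these densities count pairs of a summit and a start over summed windows, so a summit near several starts counts more than once. At 20 to 50 kb the members had 246 such pairs in 9.36 Mb of windows, which overlap between neighbouring starts. The cluster on chromosome 4 is included.

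**Figure D1:**
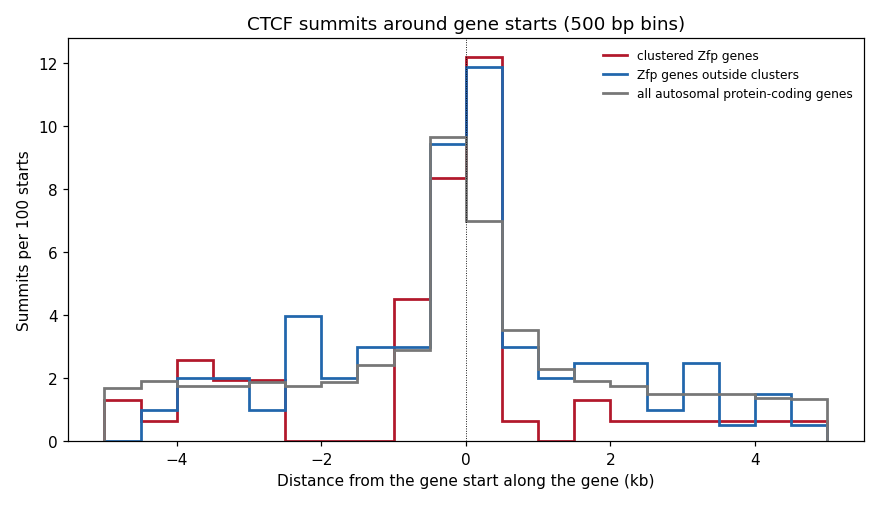
Summits per 100 starts (vertical axis) in 500 bp bins of the distance from the gene start along the gene (horizontal axis, kb), for clustered Zfp genes, Zfp genes outside clusters and all autosomal protein-coding genes. All 3 lines peak at the start, and the line of the 156 clustered genes is at 0 between 1 and 2.5 kb upstream and near 0 from 0.5 to 1.5 kb downstream.

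The members differed in sequence from the genes they were set beside, and the part of this in the shares was not tested. Of the 50-base words within 1 kb of a member start, a median of 97.8% occurred once in the genome, against 100% in both other groups. The 12 members in which under 50% of the words occurred once all lie in the cluster on chromosome 4. None of them had a summit within 1 kb, and neither did the 16 such Zfp genes outside clusters. Of all such autosomal genes 19 of 864 had one. With only starts at or above 90% kept, the shares within 1 kb were 29.3% of 116 members and 26.5% of 166 Zfp genes outside clusters, and within 5 kb they were 36.2% and 47.6%. The ratio of observed to expected CpG around the start, which is high in CpG islands, had a median of 0.599 at members, 0.715 outside clusters and 0.601 over all genes. Starts with a ratio under 0.6 had a summit within 1 kb in 16 of 78 members (20.5%), 12 of 72 Zfp genes outside clusters (16.7%) and 10.2% of all genes. At a ratio of 0.6 or more the shares were 28.2% of members, 27.7% outside clusters and 32% of all genes. Members with a summit had a median ratio of 0.633 and those without one 0.574, while over all genes the medians were 0.784 and 0.478. Without the cluster on chromosome 4 the members' medians were 0.633 and 0.638. The members' shares within 1 kb were then 16 of 61 (26.2%) under a ratio of 0.6 and 28.2% at 0.6 or more. Start-to-start pairs on opposite strands within 1 kb of another coding gene were rare at members, with none among the 38 bound and 4 among the 118 others. The share was 2.56% of members, 7.92% outside clusters and 6.97% of all genes. The 4 members are Zfp942 facing Zfp943 and Zfp944 facing Zfp758.

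**Figure D2:**
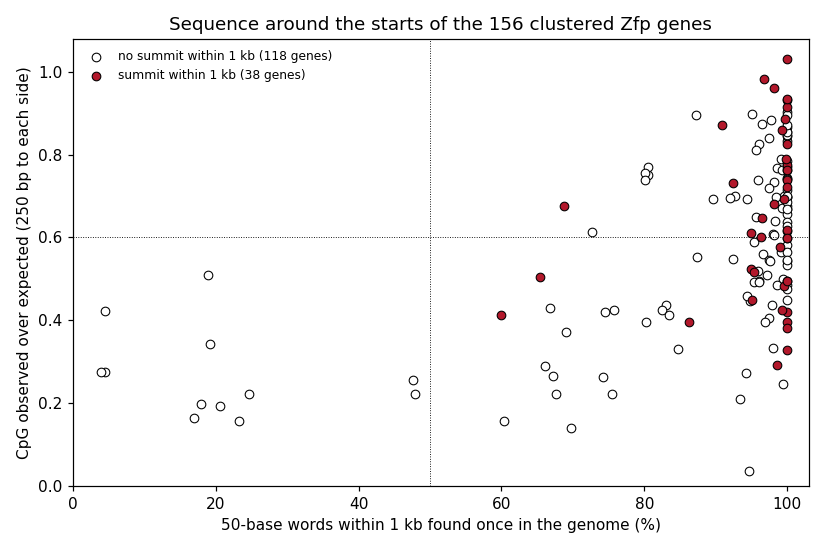
Each point is 1 of the 156 clustered Zfp genes, placed by the percentage of 50-base words within 1 kb of its start that occur once in the genome (horizontal axis) and by the ratio of observed to expected CpG in 501 bp (vertical axis). Filled points are the 38 genes with a summit within 1 kb, all of them to the right of the 50% line and spread both above and below the ratio of 0.6.

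The 40 summits within 1 kb of member starts ranged in strength from 52.03 at Zfp28 to 586.3 at Zfp786. For each member's strongest summit the median was 208.6, compared with 182.8 outside clusters, 217.9 over all genes with such a summit and 245.6 over all peaks. The quartiles of the members, 80.53 and 338.7, contain all these medians. Of the 40 summits 15 exceeded a strength of 300, 13 were under 100, 10 fell among the weakest 10% of the list and 1 among the strongest 10%. They lay 20 upstream and 20 downstream of the start, 10 of them within 100 bp. Zfp746 and Zfp74 had 2 summits each. In the ranked list of pool E these summits had strengths of 35.54 to 333.2, and in that of pool F 38 of the 40 had a strength, from 15.72 to 256.3. No pool F strength was listed at Zfp28 and Zfp606. Each list has its own scale, so the pools were compared by presence. The thresholded pool E list held 39 of the 40 summits and the pool F list 25, all of them also in pool E, and the summit at Zfp28 was in neither. Over all genes too the pool F list had fewer, with a summit within 1 kb at 16.6% against 26.5% in pool E. The matching shares over all conservative peaks were not counted, so these counts do not set the members' summits apart.

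The CTCF core motif, a 14-letter consensus searched on both strands with its centre within 50 bp of the summit and at most 2 mismatches, was present at 16 of the 40 summits (40%, 26.3 to 55.4). Outside clusters 37% of such summits had it, over all genes 49.6%, and over all summits of the list 77.6%. Windows displaced by 2000 bp from all summits held it in 3.17% of cases. With 3 mismatches allowed, a limit added after seeing the data, 31 of the 40 members' summits had a core (77.5%), and so did 18.8% of the same windows displaced by 2000 bp. Of the 16 cores 12 lay on the strand opposite to the gene and 4 on the gene's strand, and 6 of those 12 are the copies on chromosome 17. Motif-bearing summits had a median strength of 222.7 and the others 168.9. Counting only motif-bearing summits, 10.3% of members and 9.9% of Zfp genes outside clusters were bound within 1 kb, against 10.8% of all genes. From 1 to 5 kb the core was more frequent in each group, with 11 of 18 summits at members (61.1%), 71.4% outside clusters and 77.2% over all genes.

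**Figure D3:**
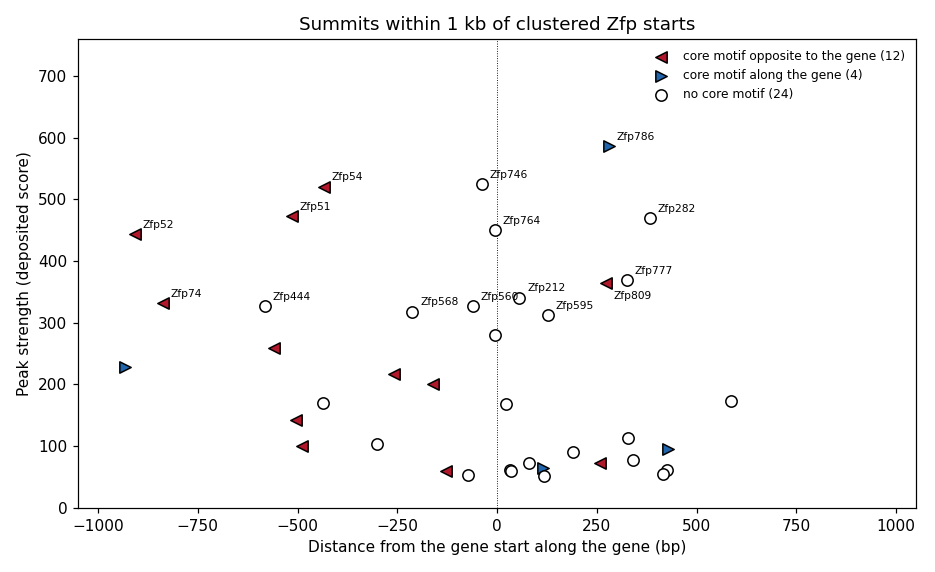
Each point is 1 of the 40 summits within 1 kb of a clustered Zfp start, by its distance from the start along the gene (horizontal axis, bp) and the deposited peak strength (vertical axis), with filled triangles for summits that carry the core motif and open circles for those that do not. Names mark the 15 summits above a strength of 300, and most triangles upstream of the start are filled for a core opposite to the gene.

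The bound members were spread unevenly over the 16 clusters, which held 5 to 19 genes each. No member was bound within 1 kb in 3 clusters, which hold 35 genes, and the shares in the other 13 ran from 14.3% to 75%. The clusters lie on chromosomes 4, 6, 8 and 13, with 2 each on chromosomes 9 and 17 and 8 on chromosome 7, where 15 of 68 members were bound within 1 kb. Neighbouring member starts were a median of 39.9 kb apart. Of 140 neighbouring pairs both genes were bound in 16, 1 gene in 37 and neither in 87.

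The cluster on chromosome 6 (chr6:47819266-48445825) had the highest share, with 6 of 8 members bound within 1 kb (75%, 40.9 to 92.9). Zfp786 had the strongest summit of any member, with 586.3 in the conservative list, 333.2 in the ranked list of pool E and 256.3 in that of pool F. It lay 280 bp downstream of the start on a core with 1 mismatch. The combined list had no summit within 1 kb of Zfp786, although the list of each pool had one. Zfp746 encodes PARIS, a KRAB zinc finger protein known as a repressor of the gene for PGC-1α, a regulator of mitochondrial genes in muscle. Its strength was 524.8 at a summit 38 bp upstream (313.8 in pool E and 211.9 in pool F), and a weaker summit of 172.6 lay 586 bp downstream. Zfp282 had a strength of 469.1 (306.2 and 161.1 in the pools), Zfp777 369 (231.2 and 137.8) and Zfp212 340.8 (226.9 and 114.3). Their summits lay 382, 326 and 56 bp downstream of the starts. Zfp956 was bound more weakly, at 64.75, and was absent from the pool F list. Zfp398 had no summit within 5 kb in the conservative list, its nearest being 5074 bp away, but had a summit within 1 kb in the combined list and the list of each pool. Thus 5 of the 6 bound genes of this cluster were in both pool lists. Without this cluster the members' share within 1 kb was 21.6%.

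The cluster from Zfp160 to Zfp946 on chromosome 17 (chr17:21008903-22456689) had 7 of 19 members bound within 1 kb (36.8%, 19.1 to 59), and 6 of these are the genes with the copied site printed above. Zfp54 had a strength of 520.6 in the conservative list, 309.3 in pool E and 213.1 in pool F. At Zfp51 the values were 472.2, 279.2 and 198.2, and at Zfp52 they were 444.2, 280.4 and 167.8. Lower values were seen at Zfp948, with 259.8, 173.4 and 101.5, at Zfp677, with 217, 158 and 59.07, and at Zfp983, with 141.9, 99.42 and 41.65. In all 3 lists Zfp54 was the highest and Zfp983, one of the copies with 2 core mismatches, the lowest. Zfp51 and Zfp52, the copies with an exact core, exchanged places between the pools. All 6 summits were in both pool lists. The seventh bound gene, Zfp994, had a strength of 103.6 at a summit 302 bp upstream with no core, and it was not in the pool F list. Zfp53 lies between Zfp51 and Zfp52 and had no copy of the site. It had no summit within 1 kb in the conservative list and one in the pool E list alone. Zfp229 had a summit of 83.3 at 2823 bp downstream, and Zfp160 was the first gene of the cluster with none within 5 kb. No summit lay within 500 kb beyond either end of this cluster, while its span held 25, or 17.3 per Mb.

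Exact cores at gene starts were rare. Within 1 kb of the start an exact core was found at 2 of 156 members, Zfp51 and Zfp52, both bound, at none of the 202 Zfp genes outside clusters and at 0.932% of all genes, of which 83.5% had a summit on it. A core with at most 1 mismatch was found near 13 member starts (8.33%), and 8 of these had a summit on it (61.5%). Among the 8 are Zfp51, Zfp52, Zfp54 and Zfp677, which hold copies of 1 site on chromosome 17. Outside clusters 16 Zfp genes (7.92%) had such a core, and 8 of them had a summit on it (50%). Over all genes 8.82% had such a core and 50% of those had a summit on it.

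The cluster on chromosome 4 (chr4:145670685-147848366) was the longest and the emptiest. None of its 17 members was bound within 1 kb, which allows a share of up to 18.4% by the interval. Zfp984 alone had a summit within 5 kb, with a strength of 234.8 at 4970 bp upstream, and Zfp980, the first gene, had its nearest 103772 bp away. The span of 2.18 Mb held 4 summits, or 1.84 per Mb, against 17.2 over chromosome 4, and its longest stretch without one was 942.4 kb. On the left 8 summits lay within 500 kb and on the right 29. Of its 50-base words 28.6% occurred once in the genome, and the median around its starts was 23.2%. Per Mb of such sequence the cluster held 6.41 summits. The median CpG ratio of its starts was 0.262. Reads from repeated sequence cannot be placed uniquely, and the part of this in the low count was not tested. Without this cluster 38 of 139 members were bound within 1 kb (27.3%, 20.6 to 35.3) and 47 within 5 kb (33.8%, 26.5 to 42), and 6.47% were bound only at 1 to 5 kb.

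**Figure D4:**
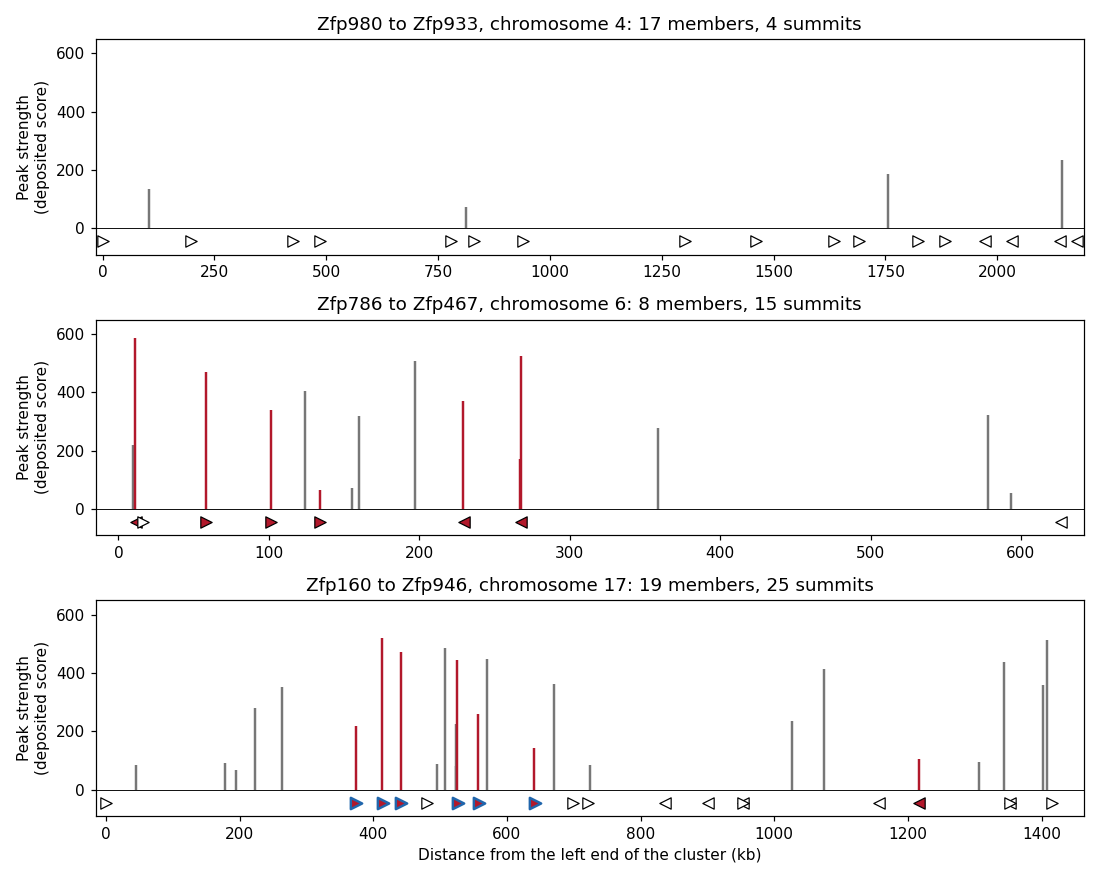
Maps of the clusters on chromosome 4, chromosome 6 and chromosome 17 (Zfp160 to Zfp946), with the distance from the left end of the cluster (horizontal axis, kb), the deposited strength of each summit as the height of a line (vertical axis) and member starts as triangles pointing along the gene. Lines and triangles in red are summits within 1 kb of a member start and the genes they belong to, and blue outlines mark the 6 genes with the copied site, which lie together in the left part of the lowest map.

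A pair of clusters on chromosome 7 also had no bound start. The 12 members from Zfp180 to Zfp575 (chr7:24081924-24587641) had no summit within 1 kb and 1 within 5 kb, at Zfp61, with a strength of 237.6 at 1577 bp downstream. The span nevertheless held 21 summits, 41.5 per Mb, 19 of them with the core, and 93.1% of its words occurred once in the genome. In the combined and pool E lists Zfp109 of this cluster was bound within 1 kb. The 6 members from Zfp628 to Zfp580 (chr7:4915217-5053723) had none within 1 kb but 5 within 5 kb. Zfp628 had a strength of 325.1 at 3419 bp upstream, Zfp580 292.5 at 4015 bp upstream and Zfp579 185.5 at 3893 bp upstream. Zfp524 and Zfp865 shared a summit of 72.82, and Zfp784 had none. These 5 genes make up 5 of the 10 members that were bound only at 1 to 5 kb. This short span also had the highest density, 86.6 summits per Mb, and holds 8 other protein-coding genes.

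The other clusters on chromosome 7 had 1 to 4 bound members each. Between Zfp84 and Zfp146, 4 of 15 were bound. Zfp74 had a strength of 332.4 at 838 bp upstream, and Zfp566 had 228.4 at 932 bp upstream. Zfp568, a KRAB zinc finger protein known to silence a placental transcript of Igf2, had 318.1 at 212 bp upstream. Zfp260 was weaker, at 77.4, and Zfp84 was the first gene without a summit within 5 kb. Between Zfp787 and Zfp28, Zfp444 had 327.6 at 582 bp upstream, and Zfp667 had 376.4 at 3653 bp upstream, the strongest within 5 kb of that cluster. Between Zfp553 and Zfp668, Zfp764 had 450 (289.6 in pool E and 162.2 in pool F) and Zfp747 279.4 (196.9 and 86.71). Each gene of this duplicated pair also had a weak summit past its end. It was 62.97 at 4004 bp downstream of the Zfp747 start and 63.85 at 3607 bp downstream of the Zfp764 start. Both lay on a core with 2 mismatches on the gene's strand, and neither was in the pool F list. In the same cluster Zfp553 had 460.8 at 3949 bp upstream. Zfp60 had 168.4 and Zfp715 95.73. Zfp110, which encodes NRIF, a binding partner of the neurotrophin receptor p75, had 89.93. This was the highest within 5 kb of a member start in its cluster, while summits of up to 506.4 lay elsewhere in the span.

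On the remaining chromosomes Zfp809 had the strongest summit within 1 kb. It encodes a KRAB zinc finger protein known to silence retroviruses in embryonic cells, and had 365.2 in the conservative list, 263.4 in pool E and 101.5 in pool F, at 272 bp downstream on a core with 2 mismatches. Zfp653 of the same cluster on chromosome 9 had 498.7 at 4774 bp downstream. In the other cluster on chromosome 9, Zfp560 had 327.1 at 60 bp upstream and Zfp846 73.54. On chromosome 13, 3 of 19 members were bound (15.8%, 5.52 to 37.6). Zfp595 had 312.9 at 128 bp downstream and Zfp65 100.2 at 490 bp upstream. On chromosome 8, Zfp868 had 200.3, and in the second cluster of chromosome 17 Zfp472 had 169.4 and Zfp870 113.7. In these clusters the first genes with no summit within 5 kb were Zfp26, Zfp872, Zfp712, Zfp964 and Zfp871.

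**Figure D5:**
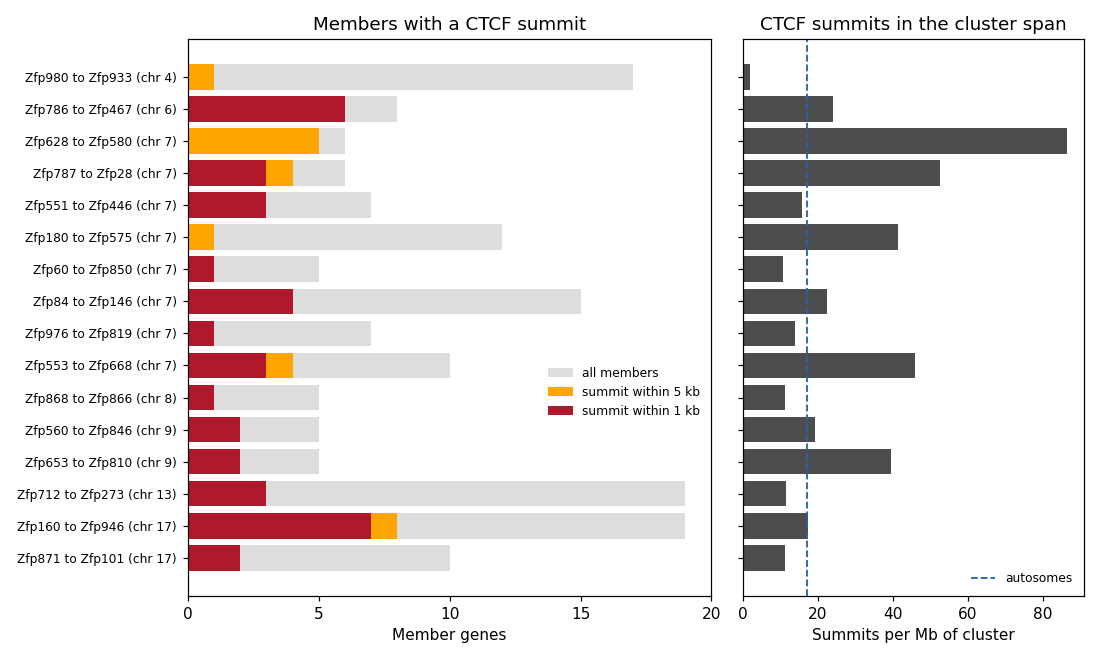
For each of the 16 clusters, the left panel gives the number of member genes (horizontal axis) in grey, with those that have a summit within 5 kb in orange and within 1 kb in red, and the right panel gives the summits per Mb of the cluster span, with the autosomal value of 17.1 as a dashed line. The cluster on chromosome 6 has 6 of 8 members in red, the chromosome 4 cluster has none and lies far below the dashed line, and the span from Zfp628 to Zfp580 stands highest at 86.6.

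Inside the cluster spans CTCF was about as dense as on the autosomes as a whole. The 16 spans held 189 summits in 10.19 Mb, or 18.6 per Mb, against 17.1 per Mb on the autosomes outside assembly gaps. In 9 of 16 clusters the density was above the autosomal one, and without chromosome 4 the spans held 23.1 per Mb. Of these summits 67.2% had the core, against 77.6% on the autosomes. By position 40 of the 189 (21.2%) lay within 1 kb of a member start, where 40% had the core and the median strength was 186.4. A further 59 lay between protein-coding genes, with the core in 76.3% and a median strength of 233.6, and 17 lay in introns of members, with the core in 82.4%. The strongest summits of the spans were away from member starts. The first 2, of 644.9 and 615.4, lay between genes in the cluster from Zfp976 to Zfp819, nearest to Lim2 and Zfp715. The others were 597.8 in an intron of Ssc5d, 595.3 in an intron of Fbxl19 and 593.1 near Hsd3b7. Within 500 kb of the clusters the strongest summits on either side ranged up to 638.4 on the right of the cluster from Zfp180 to Zfp575 and 644.6 on the right of the one from Zfp553 to Zfp668. The largest coding exon, which in these genes usually encodes the fingers, held 1 summit in 156 members, at Zfp524, over 0.232 Mb. Outside clusters 3 summits lay in 0.285 Mb of such exons.

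Other genes starting inside the same spans were bound within 1 kb less often than the members by count, 15 of 115 (13%, 8.07 to 20.4), but within 5 kb in 41 (35.7%, 27.5 to 44.7). Of these 115 genes 26 (22.6%, 15.9 to 31.1) were bound only at 1 to 5 kb, an interval that does not overlap that of the members (3.52 to 11.4). Their median CpG ratio was 0.35, and 19 carry provisional Gm symbols.

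Among Zfp genes outside clusters the strongest summits within 1 kb were at Zfp341 (566.8), Zfp639 (512.4), Zfp113 (495), Zfp319 (493) and Zfp90 (477.6), all with the core. Zfp281 and Zfp648 were the first without a summit within 5 kb. Of the other zinc finger families, Zbtb genes were bound within 1 kb in 14 of 40 (35%, 22.1 to 50.5) and Klf genes in 6 of 16 (37.5%, 18.5 to 61.4). Zscan genes were bound in 1 of 19 (5.26%, 0.935 to 24.6) and Zkscan genes in none of 11 (0 to 25.9). The share over all genes, 21.1%, lies within the intervals of the Klf, Zscan and Zkscan genes and just below that of the Zbtb genes. The strongest summits within 5 kb in these families were at Zbtb34 (595.8), Klf1 (627), Zscan2 (482.6) and Zkscan17 (535.1). Clustered receptor genes, which are also tandem arrays, were far below the clustered Zfp genes. Under the same cluster rule 3 of 1049 olfactory receptor genes (Olfr) had a summit within 1 kb (0.286%, 0.0973 to 0.837) and none of 83 Vmn2r genes had, which allows up to 4.42%. Their starts were poor in CpG, with median ratios of 0.0936 and 0.108.

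The genes through which KRAB proteins repress were bound at shares near those of all genes. Of 23 cofactor genes 4 had a summit within 1 kb (17.4%, 6.98 to 37.1), against 21.1% of all genes, and 8 within 5 kb (34.8%, 18.8 to 55.1), against 38.2%. The bound starts were those of Dnmt3a, a DNA methyltransferase, with 402.6, Morc2a, a partner of the HUSH silencing complex, with 102.3, Mbd3 of the NuRD complex with 92.1 and the deacetylase gene Hdac1 with 62.71. Trim28, the central corepressor, had its nearest summit 6652 bp from the 5′ end of its gene record, and Setdb1, the H3K9 methyltransferase, 7527 bp away. At that Trim28 start the CpG ratio was 0.115, against a median of 0.918 for the cofactor genes. Only the 5′ end of each cofactor gene record was examined.

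The share of bound members varied with the list. In the combined list 44 members were bound within 1 kb (28.2%, against 25.7% of all genes) and 57 within 5 kb (36.5%, against 43.6%). In the pool E list 47 members were bound within 1 kb (30.1%, against 26.5% of all genes) and 60 within 5 kb (38.5%, against 44.2%). In the pool F list 25 were bound within 1 kb (16%, against 16.6%) and 35 within 5 kb (22.4%, against 32.2%). By count members thus lay above all genes within 1 kb in pool E and slightly below them in pool F. The members' intervals, 23.5 to 37.7 in pool E and 11.1 to 22.6 in pool F, contain the shares of all genes. Within 5 kb the members' share was below that of Zfp genes outside clusters in both pools, at 51% in pool E and 32.2% in pool F. Within 1 kb it was also below theirs in both pools, at 33.2% and 18.8%, and in the combined list, at 32.7%, while in the conservative list it was slightly above. Of the 156 members 23 were bound within 1 kb in all 4 thresholded lists, 13 in all but pool F, and 108 in none. These patterns were counted for members only, so whether they differ from those of other genes is unknown. The ranked lists also hold peaks that missed the IDR threshold of 0.05. The ranked list of both pools had a candidate within 1 kb of 48 of the 118 members without a conservative summit (40.7%). In that list the share was 34.3% over all genes without one and 51.9% for Zfp genes outside clusters. The ranked list of pool E had a candidate at 56 of these members (47.5%, against 40% of all genes), and that of pool F at 33 (28%, against 21.4%). At least 1 of the 3 lists had one at 68 (57.6%), against 45.4% of all genes and 67.5% of Zfp genes outside clusters.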

How the data were processed

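CTCF ChIP-seq peak lists were used as deposited, on mm10. Per the labels, the 4 libraries are 2 technical replicates each of pool E and pool F. The aligner and the peak caller are not given in the sources used here. The authors deposited a peak strength, a score with no stated scale, and, in the ranked lists, the −log10 of the irreproducible discovery rate (IDR). Per the file headers and notes, technical replicates were merged and 1 control was shared. Summits (peak start plus summit offset) were set against the 5′ ends of GENCODE M21 gene records. Sequence came from the GRCm38.p6 genome. The core motif, CpG ratio in 501 bp, and 50-base words were computed in Python 3.11.15 with numpy 2.4.6, scipy 1.17.1 and pysam 0.24.0. The scripts recovered planted summits and motifs when tested on simulated data. Members, lists and comparisons were chosen with earlier results of these data known. Genes named were the 30 members with the strongest summit within 1 kb, for each cluster the strongest within 5 kb and the first without, genes at the edge of the cluster rule, the 5 strongest Zfp genes outside clusters and the strongest of each family. Other members named were chosen after their values were seen. Protein features were not analysed here. Alternatives covered the list, peak strength, cluster rule, window and motif settings.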

Additional observations from a re-analysis of the deposited data

How the results depend on the processing

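Of 86 alternative values 58 stayed within the 95% interval of the value reported and 28 did not. No paired analysis was possible because every list merges the technical replicates. The members' share within 5 kb was below that of Zfp genes outside clusters in every setting tried, with differences of -16.5 to -3.01 percentage points, but the difference within 1 kb changed sign among settings, from -4.47 to 5.8 points. With the combined list the shares outside clusters were 32.7% (1 kb) and 50% (5 kb), and the spans held 22.2 summits per Mb. With the pool E list (without pool F) the values were 38.5% of members within 5 kb, 33.2% and 51% outside clusters, a median strength of 133.6 and 22.6 per Mb. With the pool F list (without pool E) they were 16% and 22.4% of members, 32.2% outside clusters within 5 kb, a strength of 102 and 13.6 per Mb. With only peaks at or above the median strength they were 10.9% and 14.7% of members, 9.9% and 18.3% outside clusters, a strength of 365.2 and 8.54 per Mb. Strengths of different lists have their own scale. Counting motif-bearing summits only, the shares were 10.3% and 17.9% of members and 9.9% and 25.7% outside clusters. Using any annotated transcript start gave 48.5% outside clusters within 5 kb. With a radius of 250 kb, which leaves 126 members, the spans held 25.5 summits per Mb. The core was found at 20.7% of summits within 5 kb of members with at most 1 mismatch and at 77.6% with at most 3, against 46.6% with 2. Leaving out each cluster in turn gave 21.6% to 27.3% within 1 kb, 28.4% to 33.8% within 5 kb, a median strength of 228.4 to 259.8, a motif share of 41.7% to 48.2% and 16.7 to 23.1 summits per Mb. The limits of 3 mismatches and of 90% unique words were chosen after seeing the data. The cause of these shifts was not tested, other than that a stricter list, motif or strength limit leaves fewer summits. Since depth was unknown, an absent summit means only that none passed the authors' threshold.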
